A study of Mus musculus with 28 samples.

Results

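The comparison described here sets the 2 arrays of fat pads from mice fed conjugated linoleic acid (CLA) for 10 days against the 2 arrays of mice fed the control diet for as long. These are 4 of the 28 arrays of a feeding study of mouse retroperitoneal fat, the white depot behind the abdominal cavity, and they were chosen by their titles alone. CLA-fed mice received the trans-10 cis-12 isomer of CLA as 0.5% of the diet, and control mice the same study's control diet. All mice were 9 weeks old and of a strain the labels spell C57BK/6J. Per the labels, both retroperitoneal pads of 10 mice were pooled before RNA extraction, and 15 µg of their RNA went into the labelled target of each Affymetrix array. The study, titled as one of the delipidation of white fat, took pads on days 1, 2, 3, 4, 7, 10 and 17, and the other 24 arrays serve here to estimate the spread and to set day 10 beside the other days. It is not given whether both arrays of a diet come from different pools, so the p-values may measure technical spread only.

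White adipocytes store triglyceride in 1 large droplet, make fatty acids from glucose under the control of insulin, and release them by lipolysis. Trans-10 cis-12 CLA is known to shrink white fat in mice and to bring inflammatory cells into it. Fat also holds macrophages, vessels and fibroblast-like progenitors, and some white depots can switch on the brown fat programme, in which UCP1 lets mitochondria turn fuel into heat.

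Levels are log2 expression values on the RMA scale, in which a difference of 1 is a 2-fold change. Array medians on day 10 were 4.15 and 4.11 in CLA pads, against 4.19 and 4.17 in control pads. Replicate arrays correlated at 0.9905 in CLA pads and 0.9917 in control pads across all genes. The 3′ probe set for 18S ribosomal RNA read 6.99 and 8.55 in CLA pads, against 6.37 and 6.57 in control pads, and the second CLA array lay above the range of the other 24 arrays, 4.85 to 8.01. The part of this difference in the results below was not tested. The excess of the 3′ over the 5′ probe set of Gapdh was 0.60 and 0.40 in CLA pads, against 0.36 and 0.40 in control pads, within the 0.15 to 1.33 of the other arrays. Replicate arrays lay at least 2-fold apart in 1.01% of genes in CLA pads and 0.44% in control pads on day 10, in 2.15% to 4.68% within the groups of days 1 and 2 and in at most 1.40% within the other groups.

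The first control array of day 2 stood apart from its replicate in genes that CLA raised. Mmp12 read 8.28 on it and 3.87 on the second control array of day 2, Timp1 8.92 and 4.68, Ccl2 10.09 and 5.92, and Mki67 8.52 and 6.03. It widens the shared spread of such genes and lowers their day 2 effect. Without it, an alternative chosen after its values were seen, the SE of Mmp12 on day 10 was 0.29 in place of 0.77, that of Timp1 0.29 in place of 0.75 and that of Ccl2 0.27 in place of 0.73. It left the day 10 differences themselves as they were, and 1898 genes rose and 1894 fell on day 10, with 1813 of the 1825 rises and 1830 of the 1862 falls given below among them.

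After 10 days 3687 of 18194 genes differed between the diets (20.3%) at an adjusted p under 0.05 by limma, the rule behind "rose", "fell" and "called" below. Of these, 1825 rose with CLA (10.0%) and 1862 fell (10.2%). These shares of all genes are the background for every list count below. The median over all genes was -0.07, with a 5th percentile of -0.94 and a 95th of 1.14. A change of at least 2-fold with no test was seen in 1092 genes upward (6.00%) and in 824 downward (4.53%). Each difference is CLA minus control on the log2 scale, given with its standard error (SE, n = 2 arrays per diet, spread shared over the 28 arrays).

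**Figure D1:**
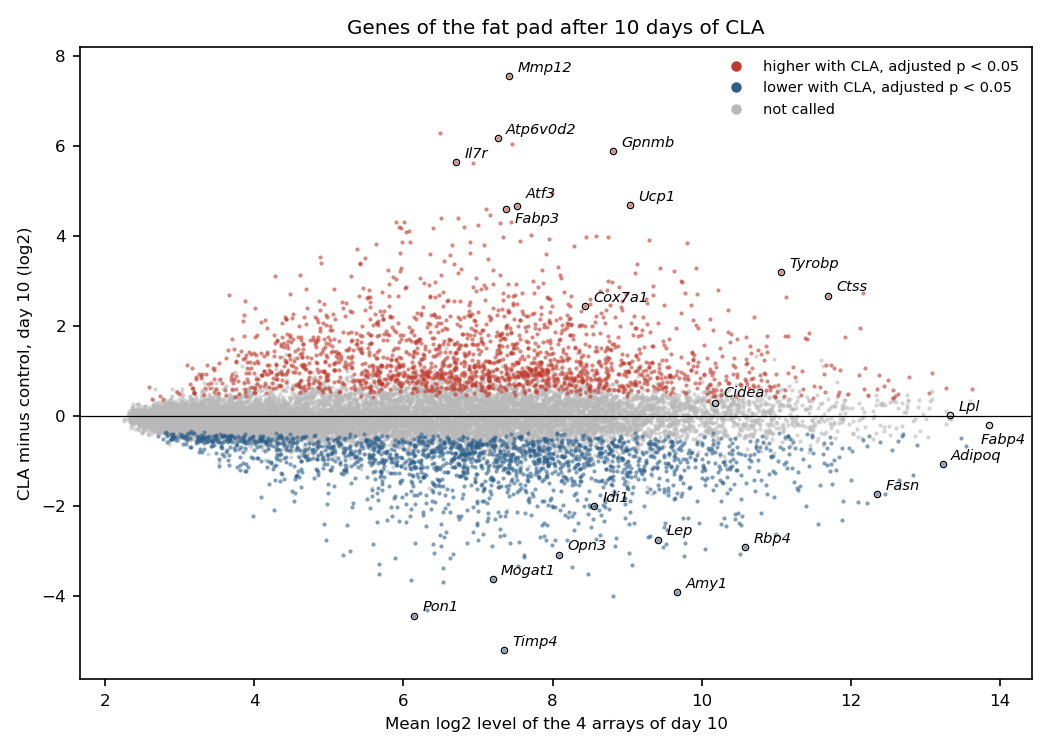
Change with CLA on day 10 (vertical axis, log2) against the mean log2 level of the 4 arrays (horizontal axis), 1 point per gene. Genes that rose (1825) are red, genes that fell (1862) are blue, and Mmp12 at 7.57 and Timp4 at -5.22 mark the ends of the range.

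The largest rise was that of Mmp12, the macrophage elastase, which read 11.27 and 11.13 in CLA pads, against 3.91 and 3.35 in control pads. Its difference was 7.57 ± 0.77 (adjusted p = 1.00e-06). Atp6v0d2, a proton pump subunit of osteoclasts and lipid-laden macrophages, read 10.70 and 10.02 in CLA pads, against 4.31 and 4.03 in control pads, and rose by 6.19 ± 0.38. In both genes the diets were separated by a gap far wider than the spread within either. Gpnmb, a membrane glycoprotein of lysosome-rich macrophages, read 11.67 and 11.86 in CLA pads, against 6.02 and 5.72 in control pads, and its further probe set differed by 2.17. Rnf128, a ubiquitin ligase, rose by 6.31 ± 0.66. Rgs1, which dampens chemokine receptor signals, rose by 6.06 ± 0.63. Il7r, the receptor for interleukin-7, rose by 5.65 ± 0.48, and Adam8, a metalloproteinase of myeloid cells, by 5.63 ± 0.64. The transcription factor gene Atf3, an immediate response to stress, rose by 4.67 ± 0.36. Nceh1, which hydrolyses cholesteryl esters in macrophages, rose by 4.48 ± 0.44 and Slc15a3, a peptide and histidine transporter of lysosomes, by 4.40 ± 0.61. Glipr1 (4.96), Arhgap25 (4.60) and the pentraxin gene Ptx3 (4.41) also stood among the 15 largest rises, with a further probe set at 0.63, 0.88 and 0.47. Ucp1 and Fabp3 complete the 15 and are described with the thermogenic genes. The control levels of many of these genes lay near the array median, where the files used here give no detection call, so a rise from there may be understated, which was not tested.

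Timp4, the metalloproteinase inhibitor of fat, had the largest fall. It read 4.57 and 4.90 in CLA pads, against 9.96 and 9.95 in control pads, a difference of -5.22 ± 0.33 (adjusted p = 3.62e-09), and its further probe set differed by -3.85. Pon1, which encodes the lipoprotein-bound enzyme paraoxonase, fell by 4.45 ± 0.65. Eci3, an enoyl-CoA isomerase, fell by 4.32 ± 0.21. Amy1, an amylase gene, read 7.67 and 7.76 in CLA pads, against 11.73 and 11.53 in control pads, and fell by 3.92 ± 0.21. Nnat, a small membrane protein of fat and brain, read 5.89 and 7.71 in CLA pads, against 10.84 and 10.79 in control pads, so its CLA arrays stood well apart from each other while both lay below the controls. Mogat1, a monoacylglycerol acyltransferase, fell by 3.64 ± 0.25, and Pnpla3, a lipase gene driven by lipogenic factors, by 3.34 ± 0.39. Ces1f, a carboxylesterase, fell by 3.32 ± 0.20, and H2-Q10, a secreted class I histocompatibility protein, by 3.38 ± 0.26. The remaining members of the 15 largest falls were B3galt2 (-3.70), Slc2a13 (-3.67), Glb1l2 (-3.51), Clmn (-3.51, with further probe sets between -1.71 and 0.00), Vnn3 (-3.40) and Prr16 (-3.29).

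**Figure D2:**
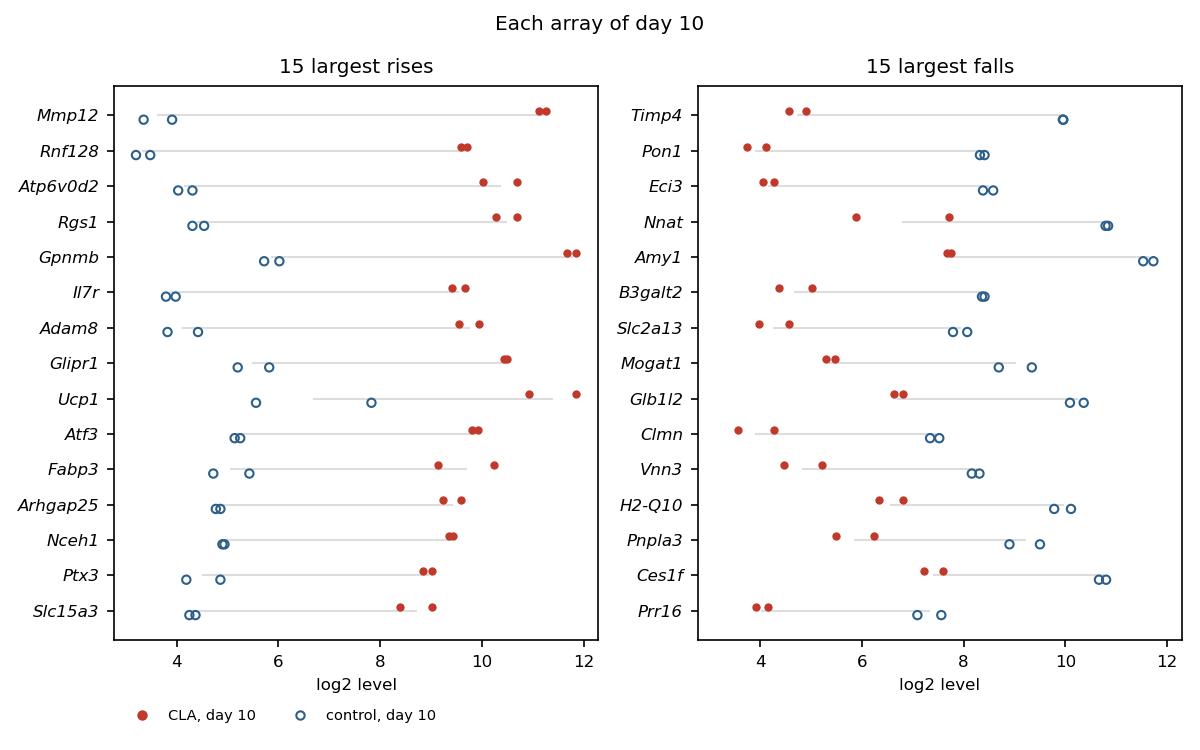
Log2 levels on each of the 4 arrays of day 10 for the 15 largest rises (left) and the 15 largest falls (right), with filled red points for CLA and open blue points for control and a grey line joining the group means. The arrays of the diets do not overlap in any of the 30 genes, which the rule for choosing them required and which holds for 23.4% of all genes upward and 33.3% downward, and Ucp1 and Nnat show the widest gaps between replicates.

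Genes that define the adipocyte were lower with CLA. Of 25 measured members of the adipocyte identity list, 18 fell and none rose, with a median of -1.13. Rbp4, a retinol carrier secreted by fat, read 9.01 and 9.24 in CLA pads, against 12.07 and 12.02 in control pads, and fell by 2.92 ± 0.23. Lep, the hormone leptin, read 7.78 and 8.29 in CLA pads, against 10.74 and 10.84 in control pads, and fell by 2.76 ± 0.32. Adipoq, the hormone adiponectin, fell by 1.07 ± 0.14. The adipogenic transcription factors Pparg and Cebpa fell by 1.11 ± 0.18 and 1.13 ± 0.29. Fabp4, the lipid carrier aP2, read 13.71 and 13.77 in CLA pads, against 13.93 and 13.98 in control pads, and did not pass (-0.21, adjusted p = 0.353), while its further probe sets lay between -1.91 and -0.29. Lpl, the lipoprotein lipase, read 13.38 and 13.30 in CLA pads, against 13.36 and 13.28 in control pads. Both genes lie near 14.18, the top of the scale here, where a fall may be understated, which was not tested. In bulk tissue, fewer adipocytes and less RNA per adipocyte cannot be told apart.

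The CLA arrays differed from each other in the adipocyte genes. The mean level of the 25 adipocyte identity genes was 9.77 and 10.41 in CLA pads, against 11.44 and 11.62 in control pads. By contrast, the mean of the 25 macrophage genes was 10.15 and 10.19 in CLA pads, against 8.01 and 8.12 in control pads. Without the first CLA array 11 adipocyte identity genes fell instead of 18, and the call of Cebpa was lost (-0.82, adjusted p = 0.134), as it was without the second control array (-0.92, adjusted p = 0.103). The second CLA array is also the one with the high 18S reading, whose part in this was not tested. In both diets the second array had the higher mean of the adipocyte identity genes.

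Genes of fatty acid synthesis fell at most of its steps. Of 19 measured genes, 17 fell and none rose, with a median of -1.88, the most negative of the 50 lists. Acss2, which makes acetyl-CoA from acetate, read 8.68 and 9.28 in CLA pads, against 11.96 and 12.15 in control pads, and fell by 3.07 ± 0.28. Elovl6, the elongase of palmitate, read 8.22 and 8.88 in CLA pads, against 11.31 and 11.74 in control pads, with further probe sets between -3.20 and -0.27. The transcription factor gene Mlxipl, which encodes ChREBP, fell by 2.66 ± 0.30, and Srebf1, which encodes SREBP-1, by 1.88 ± 0.37. Fasn, the fatty acid synthase, read 11.08 and 11.89 in CLA pads, against 13.12 and 13.32 in control pads, and fell by 1.74 ± 0.30. Acaca and Acacb, the acetyl-CoA carboxylases, fell by 2.44 and 2.27, and Acly, the ATP citrate lyase, by 1.91. Scd1, the stearoyl-CoA desaturase, fell by 0.67 ± 0.16, while a further probe set fell by 1.75. Scd1 read 13.80 and 13.95 in control pads, near the top of the scale, where a fall may be understated, which was not tested. Its call was lost without the first CLA array (-0.57, adjusted p = 0.0629) and without the second control array (-0.59, adjusted p = 0.0532). Fads2 (-0.17) and Mcat (-0.30) were the 2 members that did not pass.

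Of 11 measured genes of triglyceride synthesis, 10 fell, with a median of -1.22. After Mogat1, the largest falls were those of Pck1, which feeds glycerol synthesis (-2.44 ± 0.28, further probe sets between -3.44 and 0.15), of Lpin1, a phosphatidate phosphatase (-1.89 ± 0.26), and of Dgat2, which adds the last fatty acid (-1.89 ± 0.26). Without the first CLA array or without the second control array 6 of the 11 fell.

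The list of lipolysis genes and hormone receptors holds both lipases and genes that restrain lipolysis, and members of both kinds were lower. Of 13 measured genes, 11 fell and none rose, with a median of -1.47, or 6 without the first CLA array and 7 without the second control array. Receptors stood among the largest falls. Mc2r, the receptor for corticotropin, read 4.75 and 5.02 in CLA pads, against 8.05 and 7.83 in control pads, and fell by 3.05 ± 0.21. Ptger3, a prostaglandin E receptor that restrains lipolysis, fell by 2.54 ± 0.23, and Hcar2, the nicotinic acid receptor, which restrains it too, by 2.15 ± 0.27. Of the lipases, Lipe, the hormone-sensitive lipase, read 7.43 and 9.07 in CLA pads, against 10.62 and 10.84 in control pads, a difference of -2.48 ± 0.71, and its further probe set differed by -0.33. The call of Lipe was lost without the first CLA array (-1.66, adjusted p = 0.226), without the first control array (-2.59, adjusted p = 0.0613) and without the second (-2.37, adjusted p = 0.0965). Pnpla2, the triglyceride lipase ATGL, fell by 1.81 ± 0.42 and lost its call without the first CLA array (-1.21, adjusted p = 0.101). Mgll, the monoglyceride lipase, fell by 1.47 (-1.19 and adjusted p = 0.0776 without the first CLA array), and G0s2, the inhibitor of ATGL, by 1.25.

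The droplet coat genes split. Plin4, a perilipin of white adipocytes, read 9.97 and 10.76 in CLA pads, against 12.75 and 12.78 in control pads, and fell by 2.40 ± 0.25. Cidec, which fuses droplets into 1 large one, fell by 2.01 ± 0.49, a call lost without the first CLA array (-1.48, adjusted p = 0.109). Fitm2 fell by 1.38 and Bscl2, which encodes seipin, by 1.22, both of them needed to form droplets. Hilpda, a droplet protein that inhibits ATGL, rose by 1.17, while Plin2 (0.46), the perilipin of small droplets and foam cells, and Plin3 (0.31) did not pass. The 11 measured genes held 4 falls (36.4%) and 1 rise (9.09%), against 10.2% and 10.0% of all genes.

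Genes of the insulin pathway were lower at several levels. Of 17 measured genes, 11 fell and none rose, with a median of -1.38. Slc2a4, the insulin-responsive glucose transporter, read 7.35 and 8.14 in CLA pads, against 9.53 and 9.79 in control pads, and fell by 1.92 ± 0.37. The receptor gene Insr fell by 0.62, the docking protein gene Irs1 by 1.70 and Irs3, a docking protein of rodent fat, by 2.21 ± 0.38. The glycogen synthase genes Gys2 and Gys1 fell by 2.35 ± 0.21 and 1.82. Pde3b, the phosphodiesterase by which insulin restrains lipolysis, fell by 1.84 ± 0.25. Irs2 (-0.43) and Akt1 (0.58) did not pass, while Akt2 was lower by 1.43. The calls of Akt2 (adjusted p = 0.0517 to 0.191) and Insr rest on all 4 arrays, except that Insr kept its call without the first control array (0.0352, against 0.113 to 0.35 in the other fits).

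Of 17 measured genes for the breakdown of branched-chain amino acids, a source of lipogenic carbon in adipocytes, 14 fell, with a median of -1.25 and no rise. Ivd, the isovaleryl-CoA dehydrogenase, read 7.23 and 7.81 in CLA pads, against 9.68 and 10.06 in control pads, and fell by 2.35 ± 0.27. The carboxylase subunits Mccc2 and Mccc1 fell by 2.21 ± 0.45 and 1.73 ± 0.14, and Aldh6a1, the methylmalonate semialdehyde dehydrogenase, by 1.54 ± 0.20.

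The mitochondrial lists moved less. Of 24 respiratory chain genes 4 fell (16.7%, against 10.2% of all genes), with a median of -0.29. The largest change was that of Sdha, a subunit of succinate dehydrogenase (-0.85 ± 0.16). The other 3 falls, Ndufs1 (-0.61), Cox5b (-0.46) and Atp5j (-0.41), each lost the call with at least 1 array left out, so that 1 to 4 genes fell across those fits. Of 22 genes of the citrate cycle and pyruvate entry 8 fell and 1, the kinase gene Pdk3, rose (0.73, lost without the first CLA array at adjusted p = 0.0652). Pcx, the pyruvate carboxylase that supplies lipogenic citrate, had the largest fall, 2.30 ± 0.50, which lost its call without the first CLA array (-1.70, adjusted p = 0.0614). Pdha1, a subunit of pyruvate dehydrogenase, fell by 1.02 ± 0.13. Of 21 genes of fatty acid oxidation 8 fell, or 3 without the first CLA array and 4 without either control array, and 1 rose, with a median of -0.22. The 1 that rose was Cpt1a, the gate for fatty acids at the mitochondrial membrane, which read 9.18 and 9.28 in CLA pads, against 7.88 and 8.16 in control pads (1.21 ± 0.24, adjusted p = 0.000994). Ehhadh, the bifunctional enzyme of peroxisomes, fell by 1.20 ± 0.20, whereas Hadha (0.06) and Acadm (-0.08) of the mitochondrial spiral did not pass.

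Of 19 measured genes of cholesterol synthesis 13 fell and none rose, with a median of -1.12, and 8 fell without the first CLA array or without the second control array. Fdft1, the squalene synthase, fell by 2.29 ± 0.29, with further probe sets between -2.27 and -0.12. Idi1, which isomerises isopentenyl diphosphate, read 7.52 and 7.59 in CLA pads, against 9.57 and 9.55 in control pads, and fell by 2.00 ± 0.16 (adjusted p = 5.71e-08). Pmvk, a mevalonate pathway kinase, fell by 1.88 ± 0.21 and Sc5d, a late desaturase, by 1.63 ± 0.23. Srebf2 (-0.29), which encodes the factor that drives these genes, and Insig1 (0.04), which holds it back, did not pass. CCAAT boxes, the sites of the general factor NF-Y, are a known feature of promoters of this pathway. In the RefSeq promoter windows used here (GRCm38.p6, 250 bases before to 50 after the first listed start of a gene, both strands), 15 of 16 cholesterol genes with a window held the letters CCAAT (93.8%), against 10248 of 27025 genes in all (37.9%). The list of endoplasmic reticulum chaperones, which had rises and no falls, held them in 15 of 16 windows as well (93.8%). The window of Idi1, on the plus strand at chr13:8885356-8885655, is shown because this gene's fall on day 10 also differed from the mean of the other days, a call lost with its most variable probe set (-1.09, adjusted p = 0.387), although day 17 alone had a fall of like size (-2.12); capitals mark its 2 matches, both on the opposite strand.
Idi1: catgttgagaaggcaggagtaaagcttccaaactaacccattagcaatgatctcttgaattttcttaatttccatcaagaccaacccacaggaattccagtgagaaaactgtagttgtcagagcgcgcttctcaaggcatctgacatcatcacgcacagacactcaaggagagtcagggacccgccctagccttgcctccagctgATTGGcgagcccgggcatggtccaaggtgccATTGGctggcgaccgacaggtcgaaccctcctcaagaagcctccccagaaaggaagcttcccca

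Genes of brown and thermogenic adipocytes did not move as a block. Of 16 measured, 5 rose and 1 fell, or 2 without the second CLA array, with a median of 0.24. Ucp1, the uncoupling protein, read 10.92 and 11.86 in CLA pads, against 5.56 and 7.83 in control pads. Both CLA arrays lay above both controls, but the control arrays of day 10 were also the lowest and the highest of the 14 control arrays of the study, whose median was 6.65. The difference was 4.70 ± 0.57 (adjusted p = 7.24e-06). Elovl3, a fatty acid elongase of brown fat, read 6.94 and 7.88 in CLA pads, against 4.36 and 4.26 in control pads, and rose by 3.10 ± 0.42. Cox7a1, the cytochrome oxidase subunit of heart, muscle and brown fat, read 9.57 and 9.73 in CLA pads, against 7.08 and 7.34 in control pads, and rose by 2.44 ± 0.33. The hormone gene Fgf21, also a target of the stress response, rose by 2.42 ± 0.44, and the beige cell marker Tmem26 by 1.41 (1.01 and adjusted p = 0.0613 without the first CLA array). Ucp3, the uncoupling protein of muscle and brown fat, fell by 2.06.

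Other parts of the brown programme were not called. Cidea, a droplet protein that marks brown fat, read 9.88 and 10.75 in CLA pads, against 9.94 and 10.13 in control pads, so that the groups overlapped (0.28 ± 0.41, adjusted p = 0.703). Ppargc1a, the coactivator that drives mitochondrial genes in brown fat, read 4.53 and 4.54 in CLA pads, against 4.77 and 4.25 in control pads (0.03 ± 0.25, adjusted p = 0.961). Prdm16 (0.01), the brown fat determinant, Dio2 (0.23), the deiodinase that activates thyroid hormone, and Cox8b (0.25) did not pass either. Fabp3, the fatty acid binding protein of heart, muscle and active brown fat, read 9.13 and 10.24 in CLA pads, against 4.72 and 5.43 in control pads, and rose by 4.61 ± 0.46 (adjusted p = 7.54e-07), with a further probe set at 0.29. Muscle also expresses Fabp3 and Cox7a1. None of 16 skeletal muscle genes was called on day 10, their median was 0.17, and their mean level was 8.38 and 8.13 in CLA pads, against 8.16 and 8.03 in control pads.

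Over the days, Ucp1 differed by -2.13 on day 1, -1.06 on day 2, -1.28 on day 3, 0.10 on day 4, 4.33 on day 7, 4.70 on day 10 and 3.85 on day 17. Cidea followed a like course from a lower start, at -2.81, -4.33, -4.50 and -3.84 on days 1 to 4, 0.23 on day 7, 0.28 on day 10 and -0.88 on day 17. Fabp3 stood at -0.16, -0.24, -0.52 and 0.81 on days 1 to 4, 3.83 on day 7, 4.61 on day 10 and 2.72 on day 17. Cox7a1 ran -1.37, -1.27, -0.65 and 0.28 on days 1 to 4, 2.10 on day 7, 2.44 on day 10 and 1.46 on day 17. The median of the 16 muscle genes on days 1, 2, 3, 4, 7, 10 and 17 was 0.35, 0.75, -1.08, -1.21, -1.50, 0.17 and -1.19. Whether RNA of other tissue has a part in the rises of Fabp3 and Cox7a1 was not tested.

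**Figure D3:**
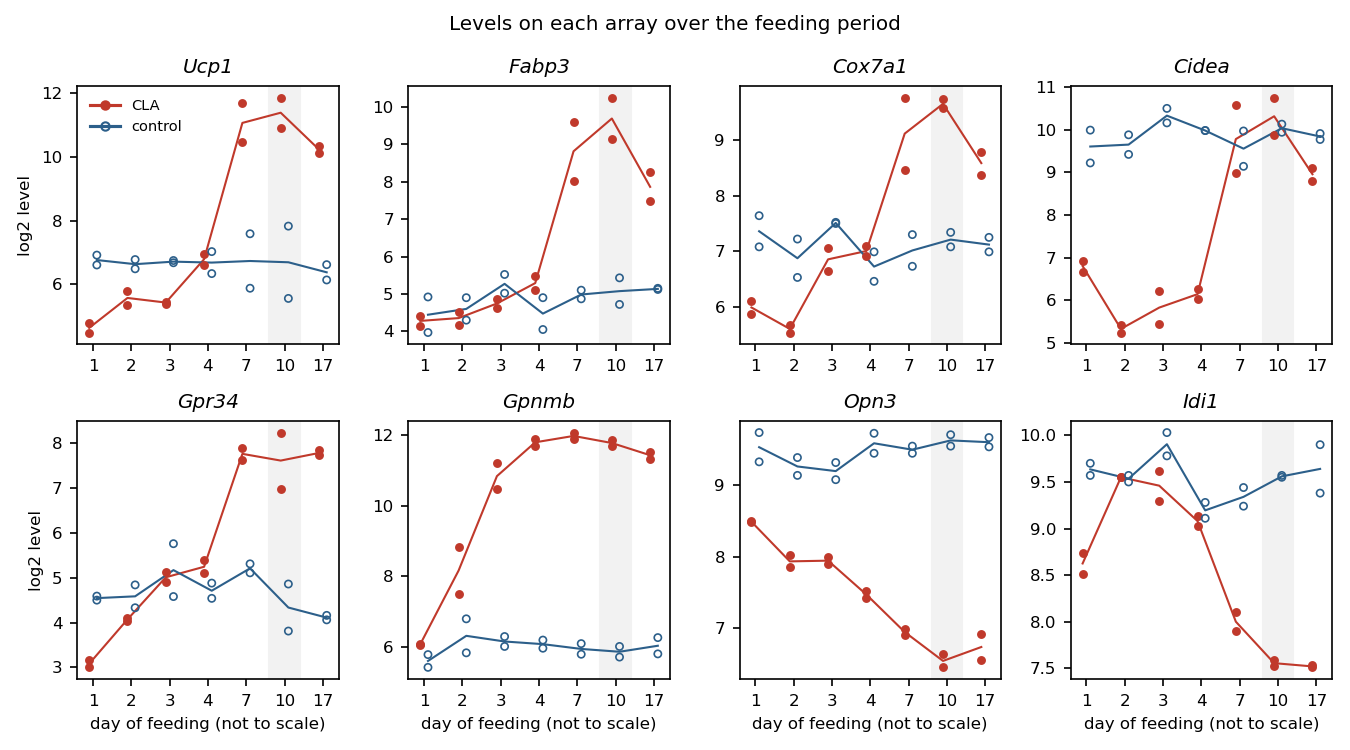
Log2 levels of 8 genes on each of the 28 arrays by day of feeding (horizontal axis, days not to scale), with filled red points for CLA, open blue points for control, lines through the group means and day 10 shaded. Ucp1, Fabp3 and Cox7a1 stand above the controls on days 7, 10 and 17, Cidea lies near the controls on days 7 and 10 after low values on days 1 to 4, and Opn3 and Idi1 lie lowest with CLA on days 10 and 17.

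Macrophage genes rose almost without exception. Of 25 measured markers 24 rose, with a median of 2.03, or 20 to 22 with any 1 array left out. Mpeg1, a pore-forming protein of macrophages, read 11.84 and 11.62 in CLA pads, against 8.02 and 7.73 in control pads, and rose by 3.85 ± 0.35. Itgax, which encodes CD11c, read 8.42 and 8.69 in CLA pads, against 4.70 and 4.79 in control pads, and rose by 3.81 ± 0.27. Cd68, a lysosomal glycoprotein, rose by 3.30 ± 0.40 and Adgre1, which encodes the F4/80 antigen, by 3.22 ± 0.26. Csf1r, the receptor for the growth factor of macrophages, rose by 1.06. The 1 marker that did not pass was Cx3cr1, the fractalkine receptor (0.00).

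Genes of lipid-associated macrophages, which take up and digest fat from dying adipocytes, rose in 11 of 17 measured cases and fell in 1, with a median of 1.88. Besides Mmp12, Atp6v0d2 and Gpnmb, Trem2, the lipid-sensing receptor that defines them, read 9.33 and 9.57 in CLA pads, against 4.99 and 5.32 in control pads, and rose by 4.29 ± 0.30, with a further probe set at -0.10. Lipa, the acid lipase of lysosomes, rose by 2.90 ± 0.35, Lgals3, which encodes galectin-3, by 2.73, and Ctsk, a cathepsin, by 2.54 ± 0.26. Acp5, the tartrate-resistant acid phosphatase, fell by 2.18. Apoe (0.23), Fabp5 (0.28) and Plin2 did not pass. Markers of alternative or resident macrophages held 4 rises and 3 falls among 19, with a median of -0.03. These were 21.1% and 15.8%, against 10.0% and 10.2% of all genes. Mrc1, the mannose receptor, rose by 1.40 ± 0.26. Arg1, arginase 1, read 5.99 and 6.38 in CLA pads, against 3.70 on both control arrays (2.48 ± 0.81), but its call and that of Folr2 (0.97), a folate receptor, were lost with any 1 of the 4 arrays left out, for Arg1 with adjusted p-values of 0.0984 to 0.159 and for Folr2 of 0.077 to 0.178. Clec10a (0.82), a lectin, kept its call only without the second control array among those 4 fits. Ccl24, Retnla and Mgl2 were lower by 0.81, 0.67 and 0.64. Mgl2 lost its call with any of the 4 arrays left out (adjusted p = 0.0818 to 0.209), Ccl24 without the second CLA or second control array (0.165 and 0.197) and Retnla without the second CLA array (0.0946). Cd163 (-0.18) and Lyve1 (0.33) did not pass. Without 1 array 1 or 2 of the 19 rose and 0 to 2 fell.

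Phagocyte receptors and the oxidase had the highest median of the 50 lists, 2.49, with 13 of 16 genes higher and none lower. Fcgr4, a receptor for immunoglobulin G, rose to 8.80 and 9.04 in CLA pads, against 4.79 and 4.65 in control pads. Clec4d, a lectin receptor of myeloid cells, rose by 4.08 ± 0.63 and Clec7a, which encodes the glucan receptor dectin-1, by 4.00 ± 0.29. Cybb, the catalytic subunit of the phagocyte oxidase, rose by 2.86. Of 26 genes of lysosomal enzymes and the proton pump, 18 rose and 1, Acp5, fell, with a median of 0.84. Ctss, a cathepsin of antigen-presenting cells, read 13.22 and 12.84 in CLA pads, against 10.31 and 10.40 in control pads, and rose by 2.67 ± 0.34. The pump subunits Atp6v1a and Atp6v1b2 rose by 1.36 and 1.33, and Tfeb, the factor that drives lysosomal genes, did not pass (0.23). Of 15 genes of cholesterol efflux and LXR targets, 6 rose (40%) and 1 fell (6.67%), with a median of 0.44. Of all genes 10.0% rose and 10.2% fell. Abcg1, a sterol exporter, rose by 2.48 ± 0.44 and Npc1, which moves cholesterol out of lysosomes, by 1.55 ± 0.36, a call lost without the second CLA array (1.31, adjusted p = 0.0572). Abca1 (0.36), the other main exporter, did not pass, and Apoc1, an apolipoprotein, was lower by 1.19 ± 0.40 with a call lost when any of the 4 arrays was left out (adjusted p = 0.0977 to 0.182).

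Genes of antigen presentation were mostly higher. Of 17 measured genes of class II presentation and dendritic cells 10 rose and 1 fell, with a median of 0.90. The fall was that of Itgae, an integrin chain (-0.68), and was lost without either CLA array or the second control array (adjusted p = 0.0538 to 0.168). Irf8, a transcription factor of dendritic cells and macrophages, rose by 2.31 ± 0.33. H2-Aa, a class II chain, read 12.75 and 12.86 in CLA pads, against 10.97 and 11.11 in control pads, and rose by 1.76 ± 0.21, with further probe sets between 1.89 and 3.10. H2-Eb1 rose by 1.38 ± 0.20. H2-Ab1 rose by 1.58 ± 0.39, a call lost without the second CLA array (1.35, adjusted p = 0.0659). Of the markers that set dendritic cells apart, Flt3 (-0.06), Zbtb46 (0.36) and Xcr1 (0.10) did not pass. Without 1 array 6 to 8 of the 17 rose.

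Lymphocyte and granulocyte markers stayed near the background of 10.0% of all genes higher and 10.2% lower. Cd8b1 read 2.98 and 2.93 in CLA pads, against 3.82 and 3.26 in control pads. Ms4a1 read 3.28 and 3.19, against 4.31 and 3.90. Both genes lay near or under the array medians of 4.11 to 4.19, without a detection call. Of 20 T and NK cell genes 2 rose and 2 fell, with a median of 0.00, and the T cell receptor genes Cd3d (-0.40), Cd3e (-0.13) and Cd3g (0.13) did not pass. The granzyme gene Gzma (1.32) and Klrk1 (1.12), which encodes NKG2D, were the rises, and both lost the call without the first CLA array (adjusted p = 0.104 for Gzma and 0.0503 for Klrk1) and without the second control array (0.139 and 0.0628). The falls were those of Cd8b1 (-0.58), a chain of CD8, and Zap70 (-0.57), a kinase of the T cell receptor, and both passed only without the second control array among the 4 fits that leave out 1 array. Of 13 B and plasma cell genes Cd22, a lectin of B cells, rose (1.80) and Ms4a1, which encodes CD20, fell (-0.87, adjusted p = 0.0812 without the first control array). Of 14 neutrophil genes 2 rose and 2 fell, and 1 rose without the first CLA array or the second control array. Lcn2, which encodes lipocalin-2 and is made by fat and macrophages too, read 6.59 and 7.90 in CLA pads, against 3.54 and 3.92 in control pads, and rose by 3.52 ± 0.46, while the granule genes Camp (-0.41), Ltf (0.11) and Ngp (0.02) did not pass. Mast cell genes formed a small group of rises. Of 14 mast cell and eosinophil genes 5 rose, or 3 without the first CLA array, and none fell, among them the mast cell proteases Cpa3 (1.52 ± 0.28), Cma1 (1.28 ± 0.21) and Tpsb2 (1.38 ± 0.25, a further probe set at -0.27) and the IgE receptor chain Fcer1a (1.40 ± 0.30). The call of Fcer1a was lost without the first CLA array (0.87, adjusted p = 0.0679), and the eosinophil granule genes Prg2 (-0.30) and Epx (-0.39) did not pass.

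Chemokines that draw monocytes were higher. Ccl2 read 9.43 and 9.59 in CLA pads, against 5.29 and 5.93 in control pads, and rose by 3.90 ± 0.73. Ccl7 rose by 3.21 ± 0.70, Ccl9 by 2.66 ± 0.39 and Cxcl2, which draws neutrophils, by 3.12 ± 0.54. In all 12 of 24 chemokine genes rose, or 9 with any 1 array left out, and 1, Cxcl9, fell by 1.06, a call lost without the first CLA array (-0.76, adjusted p = 0.116) and without the first control array (-0.90, adjusted p = 0.071). The classical inflammatory cytokines were mostly not called. Tnf read 5.20 and 5.38 in CLA pads, against 4.77 and 4.71 in control pads (0.55 ± 0.15), a call lost without the second CLA array (0.46, adjusted p = 0.112) or the second control array (0.52, adjusted p = 0.0771). Il6 (0.40, adjusted p = 0.307) and Il1b (-0.08) did not pass. Il1rn, the antagonist of the interleukin-1 receptor, read 8.21 and 8.05 in CLA pads, against 4.17 and 3.85 in control pads, and rose by 4.12 ± 0.55, with further probe sets at 2.23 and 2.29. The acute phase genes went both ways, as Saa3 was higher by 1.81 (adjusted p = 0.0905 without the second CLA array and 0.103 without the second control array) while Serpina3n and Orm1 fell by 2.39 ± 0.38 and 2.17. The whole list of 26 held 7 rises and 2 falls, with 4 to 7 rises when 1 array of day 10 was left out and 11 without the first control array of day 2.

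Of 17 interferon response genes 5 rose (29.4%, against 10.0% of all genes) and none fell. The rises were led by the antiviral genes Mx1 (2.17 ± 0.44), Oas1a (1.75 ± 0.32) and Ifit2 (1.40 ± 0.30). Of 19 complement and coagulation genes 10 rose (52.6%) and 4 fell (21.1%), against 10.0% and 10.2% of all genes. Without the first CLA array or the first control array 6 rose, and without the second CLA array or the second control array 1 fell. F7, coagulation factor VII, rose by 3.39 ± 0.35, and the receptors of the complement fragments, C3ar1 and C5ar1, by 3.29 ± 0.38 and 2.79 ± 0.50, whereas the component genes C2 and C6 were lower by 1.09 and by 1. C2 lost its call without the second CLA array (-0.79, adjusted p = 0.105) and the first control array (-0.96, adjusted p = 0.0592), and C6 without the first CLA array (-0.97, adjusted p = 0.0651) and the second control array (-0.49, adjusted p = 0.262).

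Stress lists held changes in both directions, while 10.0% of all genes rose and 10.2% fell. Of 23 genes of the integrated stress response 9 rose and 4 fell, with a median of 0.59. After Atf3, the pseudokinase gene Trib3 rose by 2.87 ± 0.29, and Ddit3, which encodes CHOP, read 8.72 and 8.84 in CLA pads, against 6.82 and 6.88 in control pads (1.93 ± 0.23). Atf4, the factor at the centre of this response, rose by 0.96, a call lost without the second CLA array (0.83, adjusted p = 0.0672). The serine synthesis gene Phgdh, also an ATF4 target, fell by 2.38 ± 0.24, and Asns, the asparagine synthetase, by 1.12. Of 21 genes of the NRF2 and oxidative stress list 7 rose, or 4 without the second CLA array, and 3 fell, with a median of 0.09. Hmox1, heme oxygenase 1, read 8.55 and 8.46 in CLA pads, against 5.80 and 5.08 in control pads, and rose by 3.07 ± 0.65. Srxn1, sulfiredoxin, rose by 2.06 ± 0.38, with further probe sets between 0.03 and 1.42. The glutathione transferase genes Gsta3 and Gsta4 fell by 2.67 ± 0.22 and 2.17 ± 0.17.

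Chaperones of the endoplasmic reticulum rose in 10 of 19 measured cases, or in 6 without the first CLA array, and none fell, with a median of 0.79. Sdf2l1, a partner of the chaperone BiP, rose by 2.16 ± 0.38, Creld2, a disulfide isomerase, by 1.72 ± 0.26, Manf, a secreted stress protein, by 1.52 ± 0.26 and Herpud1, which serves degradation, by 1.22 ± 0.26. Hspa5, which encodes BiP, rose by 1.06, Dnajc3 and Hsp90b1 by 0.97 and 0.94, and Pdia6 by 0.79. Pdia3 (1.06), Canx (0.53) and Calr (0.43) did not pass. The endoplasmic reticulum stress element is the site at which ATF6 and XBP1 act with NF-Y, and reads CCAAT, then any 9 bases, then CCACG, so that it contains the CCAAT box. It occurred on either strand in 7 of the 16 chaperone genes with a window (43.8%), against 35 of 27025 genes in all (0.13%). Whether it has a part in any rise was not tested, and 5 of those 7 genes rose on day 10. Their stretches are shown with 6 bases on either side and the element in capitals, on the strand of the gene, to let the members that rose and those that did not be compared.
Hspa5 (rose), chr2:34772019-34772049, plus strand: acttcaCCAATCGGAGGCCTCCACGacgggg
Creld2 (rose), chr15:88819514-88819544, plus strand: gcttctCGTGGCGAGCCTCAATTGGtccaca
Dnajc3 (rose), chr14:118937821-118937851, plus strand: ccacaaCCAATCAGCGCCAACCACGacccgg
Pdia6 (rose), chr12:17266485-17266515, plus strand: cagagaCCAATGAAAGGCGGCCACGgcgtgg
Hsp90b1 (rose), chr10:86705632-86705662, minus strand: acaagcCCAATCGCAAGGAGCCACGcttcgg
Canx (did not pass), chr11:50325794-50325824, minus strand: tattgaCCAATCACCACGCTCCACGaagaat
Calr (did not pass), chr8:84847069-84847099, minus strand: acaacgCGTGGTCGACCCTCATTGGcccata
Hsp90b1 holds another copy at chr10:86705527-86705557. In Creld2 and Calr the element reads on the strand opposite to the gene. Without the first CLA array 2 of these 5 rises, Hspa5 and Creld2, passed, while Dnajc3 (0.69, adjusted p = 0.103), Hsp90b1 (0.86, adjusted p = 0.05003) and Pdia6 (0.67, adjusted p = 0.0501) did not, and Dnajc3 was also lost without the second control array (0.63, adjusted p = 0.118).

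Proliferation genes rose. Of 31 measured genes of the cell cycle and DNA replication 23 rose and none fell, with a median of 1.70. Mki67, which encodes the Ki-67 antigen, read 8.85 and 8.75 in CLA pads, against 6.10 and 6.18 in control pads, and rose by 2.66 ± 0.52. Rrm2, a subunit of ribonucleotide reductase, rose by 3.62 ± 0.64, Birc5, which encodes survivin, by 2.95 ± 0.54 and Ccna2, a cyclin of S phase and G2, by 2.84 ± 0.44. Cenpa, the centromeric histone, rose by 2.67 ± 0.31, with further probe sets of 0.05 and 0.30. Ccnb2, a mitotic cyclin, rose by 2.52. The list's median was 3.02 on day 3 and 3.23 on day 4, the highest of the 7 days, and 1.63 on day 7 and 1.44 on day 17. Promoters of such genes are known for CCAAT boxes and for the cell cycle homology region, the site of the complexes that hold them silent outside division. The letters TTTGAA, the core of that region, occurred in 11 of 25 windows of the list (44.0%), against 4893 of 27025 in all (18.1%), and CCAAT in 19 of 25 (76.0%). Ccnb2, on the minus strand at chr9:70421505-70421804, is shown as a member that holds both, with its 5 matches in capitals.
Ccnb2: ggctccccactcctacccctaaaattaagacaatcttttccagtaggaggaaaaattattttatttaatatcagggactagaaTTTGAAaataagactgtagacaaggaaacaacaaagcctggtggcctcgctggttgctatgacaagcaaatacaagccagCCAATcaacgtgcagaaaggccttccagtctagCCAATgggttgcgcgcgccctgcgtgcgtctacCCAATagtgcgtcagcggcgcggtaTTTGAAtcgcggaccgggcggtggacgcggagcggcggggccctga

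Immediate early genes rose in 10 of 21 cases and none fell. Egr2 read 8.62 and 8.34 in CLA pads, against 4.26 and 4.35 in control pads, and rose by 4.17 ± 0.41, Fos by 3.93 ± 0.57 and Egr1 by 2.44 ± 0.25, while the nuclear receptor genes Nr4a1 (0.21), Nr4a2 (-0.24) and Nr4a3 (-0.11) did not pass. Of 22 apoptosis genes 8 rose, or 5 without the second control array, and none fell, with a median of 0.13. The inflammatory caspase genes Casp1 and Casp4 rose by 2.07 ± 0.28 and 1.83 ± 0.24 and Pmaip1, which encodes NOXA, by 1.67 ± 0.27. Bcl2l11, which encodes BIM, rose by 2.09 ± 0.50, a call lost without the second control array (1.61, adjusted p = 0.0906). Glycolysis and hypoxia genes were divided, 5 up and 5 down of 20, with 2 or 3 up when 1 array was left out. With all arrays 25% of this list rose and 25% fell, against 10.0% and 10.2% of all genes. Pfkfb3, which makes the activator of glycolysis, fell by 2.00 ± 0.22 and Bnip3, a mitophagy receptor induced by hypoxia, by 1.56 ± 0.20. Hk2, the insulin-induced hexokinase, fell by 1.40 ± 0.28 and Vegfa, the growth factor of vessels, by 1.38 ± 0.23. Hk1, the constitutive hexokinase, and Slc2a1, the basal glucose transporter, were higher by 0.88 and 0.93. Hk1 lost its call without the second CLA array (adjusted p = 0.114) and the first control array (0.0857), and Slc2a1 with any of the 4 left out (0.079 to 0.114). Of 18 clock genes 4 fell, or 1 without the second control array, and 1 rose. The rise was that of Nfil3, a repressor of clock output (0.82), and was lost with any of the 4 arrays left out (adjusted p = 0.0634 to 0.197). Cry2 fell by 1.13 ± 0.17, and Nr1d1, which encodes REV-ERB alpha, by 1.89 ± 0.48, a call lost without the first CLA array (-1.55, adjusted p = 0.0997) and without the second control array (-1.50, adjusted p = 0.108). The core genes Arntl (-0.09), Per1 (0.12) and Dbp (-0.06) did not pass. With all arrays 22.2% of the clock list fell and 5.56% rose, against 10.2% and 10.0% of all genes.

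Matrix genes were higher. Of 27 fibrillar collagens and crosslinkers 14 rose and none fell, with a median of 0.76, or 8 without the first control array. Postn, the matricellular protein periostin, read 12.06 and 11.93 in CLA pads, against 10.28 and 10.17 in control pads, and rose by 1.77 ± 0.14. Thbs1, thrombospondin 1, rose by 2.25 ± 0.25 and Plod2, a collagen lysine hydroxylase, by 1.74 ± 0.40. Tnc, tenascin C, rose by 1.32 ± 0.33, a call lost without the first control array (1.19, adjusted p = 0.0615). Col1a1 read 11.03 and 11.75 in CLA pads, against 9.59 and 10.54 in control pads, and did not pass (1.32 ± 0.68, adjusted p = 0.199), although it passed on the arrays of day 10 alone (adjusted p = 0.03) and on those of days 7, 10 and 17 (adjusted p = 0.00612). Col1a2 (0.79, adjusted p = 0.0594 without the second CLA array) and Col3a1 rose by 0.91 and 0.59. Of 17 basement membrane genes 1 rose and 2 fell, 5.88% and 11.8% against 10.0% and 10.2% of all genes, with a median of -0.18. Without the second CLA array 3 rose and 1 fell, and without the second control array 1 rose and none fell. The chains Col4a1 (-0.18) and Col4a2 (-0.06) did not pass. Of 22 metalloproteinases and inhibitors 13 rose and 3 fell. The collagenase and stromelysin genes Mmp13 and Mmp3 rose by 2.55 and 2.63, Mmp14 and Mmp2 by 1.60 and 1.33, and the inhibitor Timp1 by 3.45 ± 0.75, opposite to Timp4. Mmp9, a gelatinase, fell by 0.93 ± 0.19, a call lost with its most variable probe set.

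In the TGF-beta and activin family 3 of 21 genes rose and 4 fell, but 3 rose and 2 fell without the second CLA array, and 1 rose and 1 fell without the second control array. With all arrays 14.3% of this family rose and 19% fell, against 10.0% and 10.2% of all genes. Inhbb, the activin B chain made by adipocytes, read 6.14 and 6.02 in CLA pads, against 8.45 and 8.30 in control pads. It fell by 2.29 ± 0.29, with a further probe set at -0.57. Acvr1c, the receptor ALK7 of adipocytes, was lower by 1.67 ± 0.45, with a call lost without the second CLA array (-1.44, adjusted p = 0.0975) and without either control array (adjusted p = 0.0502 and 0.0658). Tgfbr1, a TGF-beta receptor, rose by 1.46 ± 0.21, with further probe sets between -0.17 and 0.23. Fst, the activin antagonist follistatin, rose by 1.20 ± 0.26, a call lost without the second control array (0.88, adjusted p = 0.0663).

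Vessel genes were lower. Of 20 endothelial genes 10 fell and none rose, with a median of -0.84, or 5 without the first CLA array and 6 without the second control array. Gpihbp1, which holds lipoprotein lipase on capillaries, read 7.03 and 7.80 in CLA pads, against 9.24 and 9.60 in control pads, and fell by 2.00 ± 0.36. Kdr, the main VEGF receptor, fell by 1.40 ± 0.25 and Ptprb, a phosphatase of endothelium, by 1.32 ± 0.26. Cldn5, a tight junction protein, fell by 1.56 ± 0.39, a call lost without the first CLA array (-1.27, adjusted p = 0.0938) and without the first control array (-1.44, adjusted p = 0.0572). Pecam1 (-0.71), Vwf (0.27) and Tek (0.05) did not pass. Of 15 smooth muscle and pericyte genes 5 fell, among them the pericyte markers Cspg4 (-1.66 ± 0.31), Kcnj8 (-1.04 ± 0.19) and Rgs5 (-1.03 ± 0.20). Rgs5 lost its call with its most variable probe set. Myh11 (0.07) and Acta2 (-0.69) did not pass. None of 6 lymphatic genes was called.

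Progenitor and fibroblast markers were divided, with 4 rises and 2 falls of 15 and a median of 0.02. These were 26.7% and 13.3%, against 10.0% and 10.2% of all genes. Without the first CLA array or the second control array 2 rose, and without the second CLA array or the second control array 1 fell. The proteoglycan gene Lum rose by 1.73 ± 0.21 and Icam1, an adhesion molecule that many cell types share, by 2.00 ± 0.28. Zfp423, a factor that commits cells to the adipocyte fate, fell by 1.48 ± 0.30. Pdgfra, the receptor that marks progenitors, read 10.89 and 10.29 in CLA pads, against 10.02 and 9.23 in control pads (0.97 ± 0.25), a call lost without the first CLA array (0.67, adjusted p = 0.156) and without the second control array (0.57, adjusted p = 0.2). Dpp4 (-0.11) and Pi16 (-0.26), markers of early progenitors, did not pass.

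Few markers of neighbouring tissues were called, while 10.0% of all genes rose and 10.2% fell. Besides the muscle list, 1 of 11 kidney genes rose and 2 of 12 adrenal genes fell. These were Slc34a1 (0.46, lost without the first CLA array or either control array at adjusted p = 0.13 to 0.41), Th (-0.67, lost without the second CLA array or the first control array at 0.161 and 0.189) and Mc2r, which fat expresses too. The mean level of the adrenal list was 4.21 and 4.16 in CLA pads, against 4.58 and 4.58 in control pads. Of 12 mesothelial genes 1, the keratin gene Krt19, fell (-0.68), a call lost with any of the 4 arrays left out (adjusted p = 0.107 to 0.135), and their mean level was 6.82 and 6.39 in CLA pads, against 6.84 and 6.83 in control pads. Of 5 erythroid genes Alas2, the erythroid heme synthesis enzyme, fell by 1.46 ± 0.34 (-1.18 and adjusted p = 0.0712 without the first CLA array), while Hba-a1 (-0.14) did not pass. Of 8 Schwann cell and nerve genes S100b, which adipocytes express too, was higher by 0.93 (adjusted p = 0.29 without the second CLA array and 0.243 without the first control array), and none of 6 pancreatic genes was called.

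**Figure D4:**
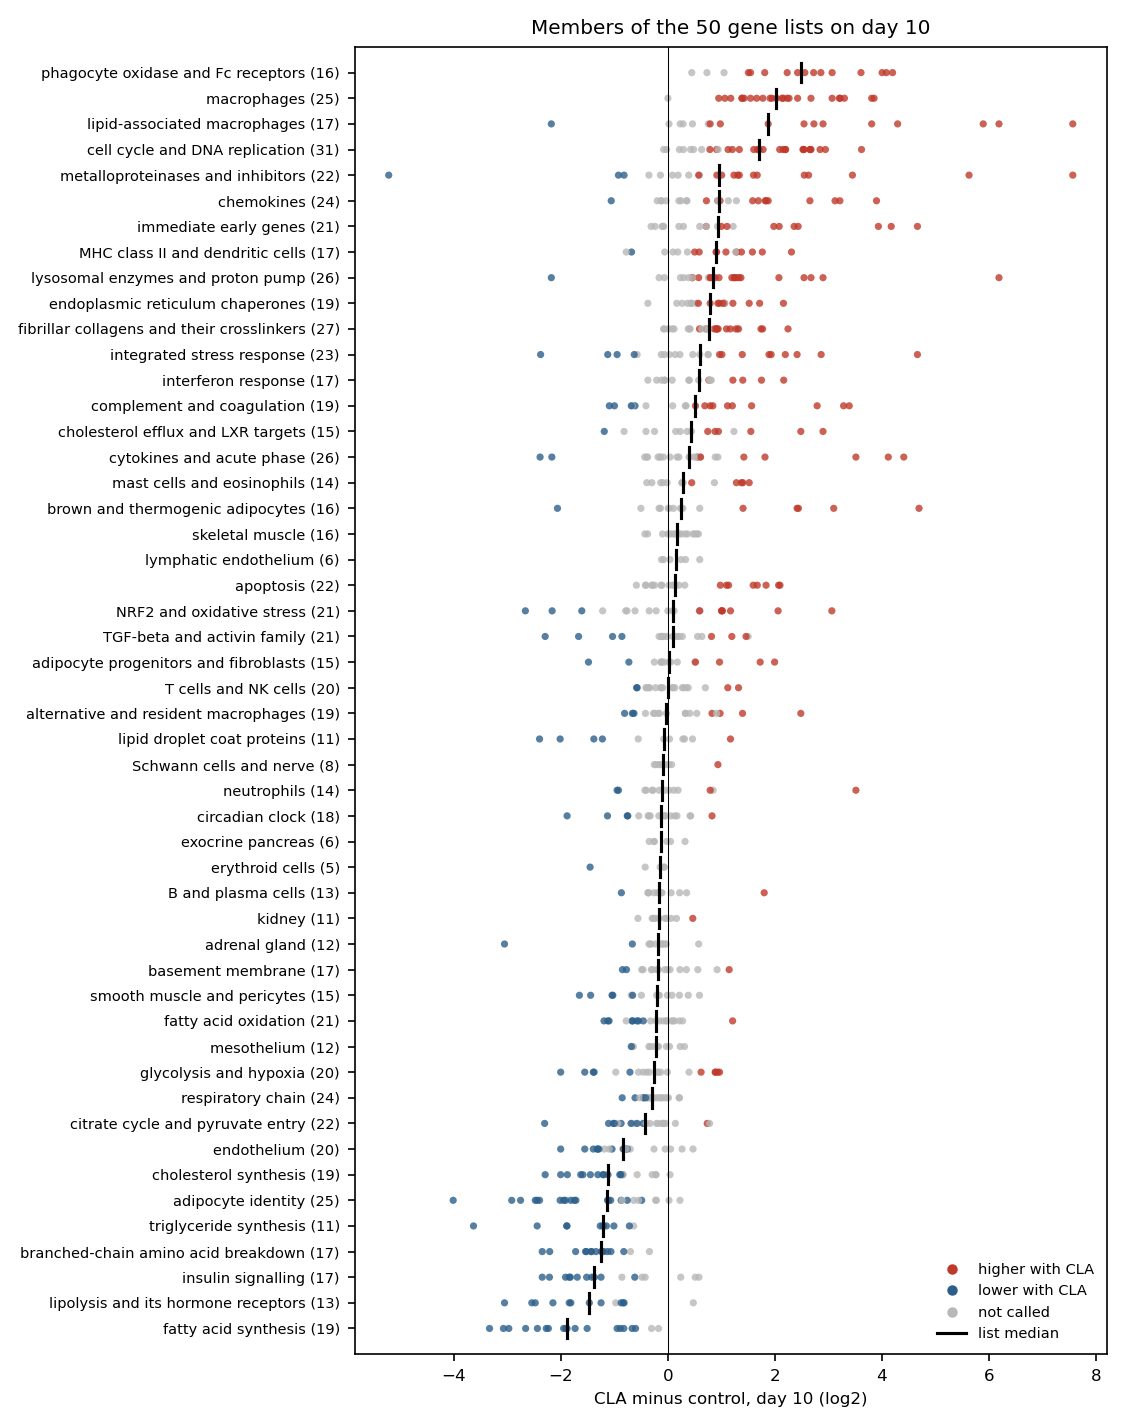
Change with CLA on day 10 (horizontal axis, log2) of each measured member of the 50 gene lists, ordered by the list median (black bar), with red for genes that rose, blue for genes that fell and grey for the rest, and the number measured in parentheses. Phagocyte, macrophage and lipid-associated macrophage lists stand highest, with medians of 2.49, 2.03 and 1.88, and fatty acid synthesis lowest at -1.88.

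The effect of day 10 was then set against the mean effect of the other 6 days in the same limma model. The difference passed for 31 genes (0.170%), 27 of them with a higher (0.148%) and 4 with a lower effect on day 10 (0.0220%), and 1581 genes had an unadjusted p under 0.05 (8.69%). Ucp1 had the largest difference of these, 4.06 ± 0.61 (adjusted p = 0.0047), since its mean effect on the other days was 0.64. Fabp3 followed with 3.54 ± 0.50, Cidea with 2.97 ± 0.44, Gpr34, a receptor for lysophosphatidylserine on macrophages and microglia, with 2.51 ± 0.40 and Cox7a1 with 2.35 ± 0.35. Among genes of myeloid cells the difference was 2.08 ± 0.32 for Clec7a, 1.88 ± 0.37 for Gpnmb, 1.70 ± 0.31 for Arhgap25, 1.67 ± 0.29 for Itgax and 1.20 ± 0.23 for H2-Aa. Postn differed by 0.78 ± 0.15. The remaining 16 genes with a higher effect included the basement membrane gene Frem1 (0.87) and the fibulin gene Fbln7 (1.68), both chosen after their values were seen.

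Lower effects on day 10 were those of Opn3, Idi1, Tdrp and Prps1. Opn3, an opsin that adipocytes express, read 6.63 and 6.45 in CLA pads, against 9.55 and 9.71 in control pads, a difference of -3.09 ± 0.16 on day 10 and of -1.05 to -2.87 on the other days (-1.23 ± 0.17 against their mean). Idi1 differed by -1.01, 0.01, -0.44 and -0.12 on days 1 to 4, -1.34 on day 7 and -2.12 on day 17 (-1.17 ± 0.17). Tdrp read 7.17 and 7.60 in CLA pads, against 9.43 and 9.71 in control pads (-1.08 ± 0.19). Prps1, which makes the ribose donor of nucleotides, read 7.87 and 7.91 in CLA pads, against 9.61 and 9.34 in control pads (-0.93 ± 0.18, adjusted p = 0.0424).

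These differences rest on all 4 arrays of day 10. With any 1 array of day 10 left out, 4 to 7 genes passed with a higher and 0 to 2 with a lower effect, and none of the 15 genes just named passed in all 4 such fits. Ucp1 differed by 4.53 (adjusted p = 0.0232) without the first CLA array, by 3.59 (adjusted p = 0.088) without the second, by 2.92 (adjusted p = 0.0728) without the first control array and by 5.19 (adjusted p = 0.000952) without the second. Other settings lost some of these calls too. Idi1 was lost with its most variable probe set, as given above. Prps1 was lost with the intensity trend (adjusted p = 0.0555), quantile normalisation (0.0508), the filter on dim genes (0.0501), the most variable probe set (0.0532) and array weights (0.0539). Gpnmb was lost with the most variable probe set (0.0602) and Postn with the filter on dim genes (0.0571). Without the first control array of day 2 43 genes passed with a higher and 16 with a lower effect on day 10, all 31 among them. One of those added was Mmp12, whose effect was higher on day 10 by 1.91 (adjusted p = 0.00685), against 2.28 with all arrays (adjusted p = 0.403).

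**Figure D5:**
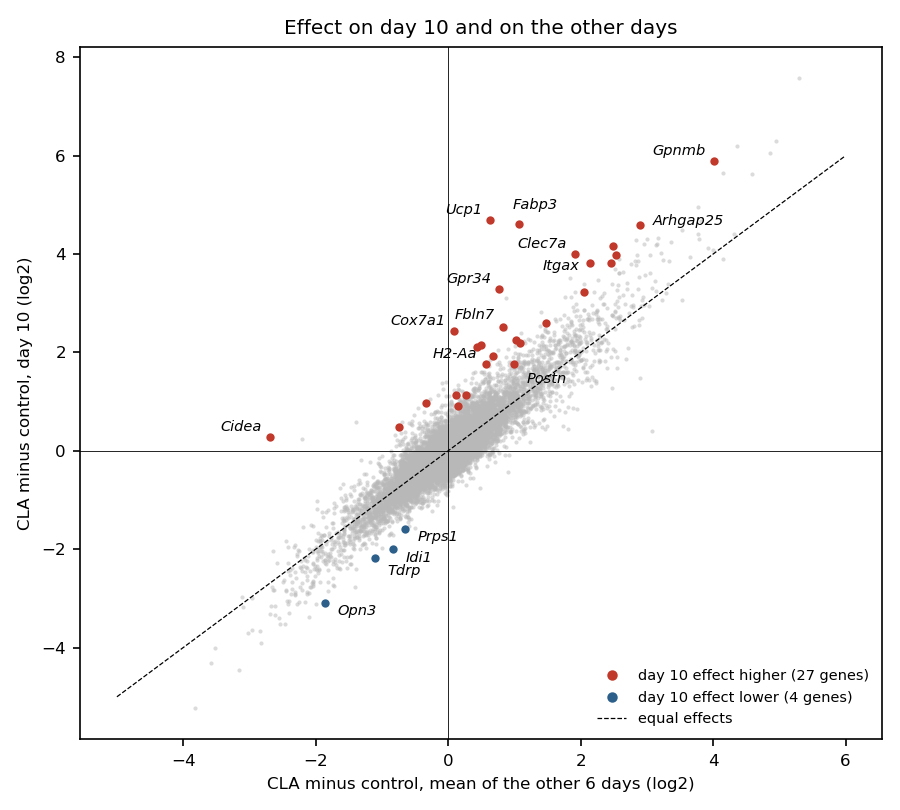
Change with CLA on day 10 (vertical axis, log2) against the mean change on the other 6 days (horizontal axis), 1 grey point per gene, with the 31 genes whose effects differed in red (27 higher on day 10) and blue (4 lower) and a dashed line of equal effects. Most genes lie along the line, Ucp1, Fabp3 and Cox7a1 lie well above it, and Cidea is near 0 on day 10 and at -2.69 on the other days.

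The other days called 18.8% (day 1), 10.2% (day 2), 22.3% (day 3), 24.1% (day 4), 17.3% (day 7) and 20.3% (day 17) of all genes. Of the 3687 genes called on day 10, 2519 were called in the same direction on day 7, which is 68.3% of the day 10 genes and 79.9% of the day 7 genes, and 2754 on day 17, 74.7% of either. None was called in the opposite direction on day 7 or day 17, against 112 on day 1, when 1351 were shared. The effects of day 10 correlated across genes at 0.914 with those of day 7 and at 0.917 with those of day 17, against 0.474 for day 1, as a description, since genes are not independent and no control array is shared between days. All 6 other days called 614 of the genes in the same direction, or 785 without the first control array of day 2. Another 370 were called in that direction on day 10 alone, yet none of those 370 is among the 31 whose effect differed from the other days.

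No gene passed the test of a difference between day 10 and day 7, or between day 10 and day 17, by limma (0.00% each), with 549 (3.02%) and 537 (2.95%) genes at an unadjusted p under 0.05. The array number limits these tests, and the intervals are wide. For Ucp1 day 10 minus day 7 was 0.36 with a 95% interval of -1.32 to 2.04, and day 10 minus day 17 was 0.84 (-0.84 to 2.52). For Fabp3 the differences were 0.79 (-0.57 to 2.14) and 1.88 (0.53 to 3.24), and for Fbln7 1.02 (0.57 to 1.48) and -0.99 (-1.45 to -0.54), before adjustment over genes. The median of the cholesterol synthesis list was -0.02 on day 2, 0.03 on day 4, -0.78 on day 7, -1.12 on day 10 and -1.33 on day 17, and that of the endothelial list was -1.51 on day 7, -0.84 on day 10 and -0.71 on day 17, neither difference having a test of its own.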

How the data were processed

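Expression was measured in retroperitoneal fat pads, 2 arrays per diet and day. The authors deposited log2 values per probe set made with RMA, which corrects background, normalises arrays by quantiles and summarises probes. RMA is named without a version per the submitters' processing notes, and the annotation build is not given in the sources used here. Values were used as deposited, without a filter on dim probe sets.

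Of 45101 probe sets, 34958 name 1 gene, 932 several and 9211 none in the probe table, and 34754 matched RefSeq (GRCm38.p6) by gene ID. Each of 18194 genes was read from the probe set whose mean across the 28 arrays was highest; 9012 genes had more than 1, and Actb, Gapdh and Pcx are represented by array controls. One limma 3.58.1 model (R 4.3.3) with 14 group means and 14 residual degrees of freedom gave the day 10 contrast and its differences from other days, two-sided, with Benjamini-Hochberg adjustment over all genes. Figures used matplotlib 3.10.9 in Python 3.11.15. The fit was tested on simulated data.

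The 50 gene lists and the members described were chosen with earlier results of these data known, from textbook knowledge, and were counted, not tested. Genes were named by rule: the 15 largest rises and 15 largest falls among called genes whose arrays do not overlap and that have a proper name, the 4 called members of each list with the largest change (or, with fewer than 2 called, its 2 most abundant members), the 5 largest called differences between day 10 and other days in each direction, and 28 fixed genes, of which Plin1 was not analysed here. Other list members named in the text, and the genes said to be chosen after their values were seen, fall outside that rule. Alternatives covered the spread estimate, the variance trend, normalisation, a filter on dim genes, the probe set, array weights and a 2-fold rule. A replicate block paired the same-numbered CLA and control arrays of each day, which the main model does not pair. Each array of day 10 was also left out, and, added after seeing the data, the first control array of day 2. Some genes of the lists were not analysed here. The number of arrays limits the precision.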

Additional observations from a re-analysis of the deposited data

Results flagged for a closer look

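The genes below were singled out because their CLA effect on day 10 differed, by limma, from the mean effect of the other 6 days. The difference was 4.06 on the log2 scale for Ucp1, 3.54 for Fabp3, 2.97 for Cidea, 2.51 for Gpr34 and 2.35 for Cox7a1. It was 2.08 for Clec7a, 1.88 for Gpnmb, 1.70 for Arhgap25, 1.67 for Itgax, 1.20 for H2-Aa and 0.78 for Postn. On the lower side it was -1.23 for Opn3, -1.17 for Idi1, -1.08 for Tdrp and -0.93 for Prps1. Of these 15 genes, Cidea alone was not called on day 10 itself. Against day 7 or day 17 alone, none of them passed.

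Probe sets outside the comparison also moved. Of 10092 that name no single gene, 182 were higher with CLA on day 10 (1.80%) and 242 lower (2.40%), and they are not named here.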

How the results depend on the processing

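Of 212 genes named by rule, 193 were called on day 10. Of these, 153 kept the call in every one of the 14 other settings that held them, while 40 lost it in at least 1. The filter on dim genes held only 192 of the 212. Of 404 called list members, 157 lost the call with at least 1 of the 4 arrays left out. Of the 193 called genes named by rule, only Npas2 changed sign, to 0.12 with its most variable probe set. The 1825 rises and 1862 falls became 1092 and 824 under the 2-fold rule, and 1271 to 1425 rises and 1161 to 1458 falls with 1 array of day 10 left out, with the lone array assumed to vary like the other groups, against 1898 rises and 1894 falls without the first control array of day 2. The 27 genes with a higher and 4 with a lower effect on day 10 than on the other days became 81 and 26 with the replicate block, 41 higher with quantile normalisation, 2 lower with the most variable probe set, 4 to 7 higher and 0 to 2 lower with 1 array of day 10 left out, and 43 higher and 16 lower without the first control array of day 2, a setting chosen after seeing the data. The 0 differences from day 7 became 2 higher with an intensity trend and 1 higher with the block. Those from day 17 became 3 higher and 1 lower with the trend, 3 higher and 2 lower with array weights, and 1 lower with the block. The cause was not tested, apart from the fewer arrays of the fits that leave 1 out. The replicate block gave 2425 rises and 2578 falls on day 10, while the main counts come from the unpaired model. Deviations of same-numbered CLA and control arrays from their group means correlated at 0.345 on day 10, and at 0.0978 to 0.566 over the days. Without the second CLA array, which reads highest for 18S, 1425 genes rose and 1396 fell. Array number, dim control levels without detection calls and probe sets near the highest value limit what can be read from single genes.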

Other observations

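Cd300c2 and Cd72, receptors of myeloid cells, were higher with CLA on day 10 by 3.99 and 4.17, and Hpgds, the prostaglandin D synthase, by 3.82. Cited1, a coactivator that marks beige adipocytes, read 5.35 and 5.64 in CLA pads, against 3.23 and 3.47 in control pads. Its effect was 0.40 on day 7, 2.14 on day 10 and 2.34 on day 17, and it differed from the mean of the other days by 1.64 ± 0.22 (limma, adjusted p = 0.00298). S100g, a calcium-binding protein, differed by 1.67 ± 0.22 from that mean. Sparcl1, a matricellular protein, was at -0.90 on day 4, -0.18 on day 7, 0.96 on day 10 and 1.25 on day 17. These genes were chosen after their values were seen, from the 31 whose day 10 effect differed from the other days.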
